A study of Mus musculus with 4 samples.

Results

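Ribosomal proteins of the cytosolic ribosome were followed as a set of genes whose promoters are used in nearly every growing cell. The members were taken by name from RefSeq's genes on GRCm38.p6 (mm10). They are the protein-coding genes whose symbol is Rpl or Rps followed by a number, with or without a final a, l or x, together with the P-stalk genes Rplp0, Rplp1 and Rplp2 and the laminin receptor gene Rpsa. The rule found 81 of 21883 protein-coding genes on chromosomes 1 to 19, X and Y. They comprise 43 large-subunit genes, 30 small-subunit genes, the 3 P-stalk genes and 5 paralogs whose symbol ends in l (Rpl3l, Rpl10l, Rpl32l, Rpl39l and Rps27l).

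Each cytosolic ribosome is assembled from a small subunit, which decodes the messenger RNA, and a large subunit, which joins amino acids. Every ribosome needs about equal amounts of each protein, and the genes are scattered over the genome rather than clustered. Their messages typically begin with a cytosine followed by a run of pyrimidines, the terminal oligopyrimidine (TOP) tract, through which the kinase mTOR controls their translation. A few paralogs replace the usual protein in single tissues, such as Rpl3l in heart and skeletal muscle and Rpl10l and Rpl39l in male germ cells.

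Chromatin accessibility was measured by ATAC-seq, where adapters are inserted into open DNA by the transposase Tn5. All libraries came from iMGT-Myh6-eGFP-MEF cells, a line of mouse embryonic fibroblasts in which doxycycline (1 μg/mL) induces Mef2c, Gata4 and Tbx5 (MGT), 3 cardiac transcription factors that push fibroblasts towards heart muscle cells. All cells were induced and harvested at day 1, after transfection with siRNA that was either a control (siControl, 2 libraries) or directed at Chst7, a chondroitin sulfotransferase gene (siChst7, 2 libraries). No library of uninduced cells is part of the comparison. The labels do not say whether the biological replicates were separate cultures, so any p-value applies to these libraries only. The 4 lists held 66165 to 75696 peaks, with siChst7 replicate 2 the shortest. Background read density, taken from the steps of weak peaks with siControl replicate 1 set to 1, was 0.964 in the other siControl library, and 1.02 and 0.757 in siChst7 replicates 1 and 2. Of 10 fibroblast markers, 9 had an end peak (one at most 1 kb from either gene end) in all 4 libraries. The same held for 3 of 10 cardiomyocyte, 2 of 6 immune, 0 of 5 endothelial and 1 of 5 epithelial markers, and for 53.8% of all protein-coding genes. Some of the remaining markers held a region called in all 4 libraries over the gene or within 1 kb. These were Prrx1, Actn2, Ryr2, Itgam, Cdh5, Kdr, Pecam1, Tek, Cdh1 and Grhl2.

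The sequences just upstream of the starts show what kind of promoter the peaks covered. They come from a RefSeq promoter table of GRCm38.p6 that holds 61 of the 81 members with 73 annotated starts. Shown are 200 bases before to 20 after the start, 5′ to 3′ on the strand of the gene. Capitals mark matches on either strand to 5 short motifs: the ETS core CCGGAA, the YY1 core AAGATGG, the SP1 box GGGCGG, the TATA box TATAAA and the E-box CACGTG, none of which contains another. The first set is of promoters under a peak in all 4 libraries: Rpl7a (chr2:26910607-26910826, + strand), Rps18 (chr17:33955646-33955865, − strand) and Rpl15 (chr14:18270967-18271186, − strand), whose summits fell on the same base in every library, Rps10 (chr17:27635225-27635444, − strand), with a pyrimidine run at its start, Rpsa (chr9:120127566-120127785, + strand), with several ETS cores, and Rps27 (chr3:90213629-90213848, − strand), whose summit differed between the siRNAs.
Rpl7a: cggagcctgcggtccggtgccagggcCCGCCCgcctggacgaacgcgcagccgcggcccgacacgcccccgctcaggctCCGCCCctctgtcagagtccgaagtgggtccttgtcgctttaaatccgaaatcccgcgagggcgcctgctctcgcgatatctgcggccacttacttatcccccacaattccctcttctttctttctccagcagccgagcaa
Rps18: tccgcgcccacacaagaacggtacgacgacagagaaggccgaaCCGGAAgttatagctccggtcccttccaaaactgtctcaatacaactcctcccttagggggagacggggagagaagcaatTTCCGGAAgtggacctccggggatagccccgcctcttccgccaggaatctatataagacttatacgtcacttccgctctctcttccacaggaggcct
Rpl15: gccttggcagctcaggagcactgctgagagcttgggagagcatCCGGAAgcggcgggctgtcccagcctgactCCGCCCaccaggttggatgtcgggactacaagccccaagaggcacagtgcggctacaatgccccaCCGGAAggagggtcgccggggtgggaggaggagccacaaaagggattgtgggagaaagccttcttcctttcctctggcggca
Rps10: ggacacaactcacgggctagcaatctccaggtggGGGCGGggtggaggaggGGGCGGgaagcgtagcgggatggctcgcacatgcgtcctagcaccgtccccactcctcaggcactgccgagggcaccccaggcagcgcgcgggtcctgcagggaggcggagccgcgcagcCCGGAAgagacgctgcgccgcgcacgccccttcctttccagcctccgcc
Rpsa: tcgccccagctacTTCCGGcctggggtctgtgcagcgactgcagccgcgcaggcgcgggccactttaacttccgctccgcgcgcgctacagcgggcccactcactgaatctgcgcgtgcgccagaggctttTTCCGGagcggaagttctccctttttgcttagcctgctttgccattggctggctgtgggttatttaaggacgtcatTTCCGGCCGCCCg
Rps27: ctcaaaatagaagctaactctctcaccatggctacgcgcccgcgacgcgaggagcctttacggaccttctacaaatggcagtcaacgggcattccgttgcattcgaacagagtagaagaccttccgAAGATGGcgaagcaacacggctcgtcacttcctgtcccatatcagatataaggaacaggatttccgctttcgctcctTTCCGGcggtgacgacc

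The second set is of paralog promoters with no peak over the start in any library: Rpl10l (chr12:66284382-66284601, − strand), Rpl39l (chr16:10170028-10170247, + strand), Rpl32l (chr10:20208239-20208458, + strand) and the upstream one of 2 annotated starts of Rpl3l (chr17:24727626-24727845, + strand).
Rpl10l: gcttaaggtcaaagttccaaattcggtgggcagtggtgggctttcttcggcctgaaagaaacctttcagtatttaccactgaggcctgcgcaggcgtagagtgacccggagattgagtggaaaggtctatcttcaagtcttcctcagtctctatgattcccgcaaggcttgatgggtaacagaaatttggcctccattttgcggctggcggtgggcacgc
Rpl39l: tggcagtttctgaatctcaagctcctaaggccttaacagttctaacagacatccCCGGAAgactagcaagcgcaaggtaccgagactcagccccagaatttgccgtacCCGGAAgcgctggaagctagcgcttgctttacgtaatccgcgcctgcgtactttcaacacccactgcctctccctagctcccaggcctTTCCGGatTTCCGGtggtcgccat
Rpl32l: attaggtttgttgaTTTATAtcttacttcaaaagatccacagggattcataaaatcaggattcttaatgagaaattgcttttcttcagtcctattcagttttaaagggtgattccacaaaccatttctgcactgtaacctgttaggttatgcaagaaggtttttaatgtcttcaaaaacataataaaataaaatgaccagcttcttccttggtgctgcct
Rpl3l: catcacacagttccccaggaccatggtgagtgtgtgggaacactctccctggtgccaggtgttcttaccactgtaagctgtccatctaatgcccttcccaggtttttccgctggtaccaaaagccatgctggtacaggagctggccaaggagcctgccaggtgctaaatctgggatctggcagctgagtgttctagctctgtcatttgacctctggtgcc

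Nearly all ribosomal protein genes carried an accessible region at a gene end in every library. An end peak was present in every one of the 4 libraries at 76 of the 81 genes (93.8%), against 53.8% of all protein-coding genes. Each of the 4 libraries on its own had 76, and no member was called in some libraries and not in others. The 5 genes without a peak in any library were the paralogs Rpl10l, Rpl32l and Rpl39l, the large-subunit gene Rpl17 and the small-subunit gene Rps2. Rpl17 and Rps2 did hold a region called in all 4 libraries inside the gene, 1102 and 1450 bp from the nearer gene end. With regions over the gene body counted as well, 76 of the 76 members that are not paralogs were accessible in all 4 libraries, as were 2 of the 5 paralogs, against 66.8% of all protein-coding genes.

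Rps2, which encodes a protein at the entrance of the messenger channel, shows how the gene model decides its count. Its annotated start in the promoter table lies at 24720063 on chromosome 17, well inside the gene as the gene table draws it (24718121 to 24721927). The peak over that start had a fold enrichment of 9.83 and 10.7 in siControl and 10.9 and 10.6 in siChst7. Fold enrichment here is the authors' ratio, at the summit, of a library's pileup over its local background. Rpl19, a large-subunit protein at the bridge to the small subunit, is a second case. Its strongest region within 1 kb of a gene end lay downstream of the gene at 98031393 to 98031897 on chromosome 11, with fold enrichments of 6.59, 6.76, 5.52 and 6.75. The peak over its starts at 98026710 and 98026924 had 8.16 and 8.498 in siControl and 8.72 and 8.42 in siChst7, and lies too far from the gene table's end to be counted.

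Most members also had a peak over an annotated start. Of the 61 members in the promoter table, 57 had a start under a peak in all 4 libraries, and the remaining 4 were Rpl10l, Rpl32l, Rpl39l and Rpl3l. Counted by start, 66 of 73 member starts were covered in all 4 libraries, against 44.1% of all starts of protein-coding genes. The 7 uncovered starts were those of the 4 paralogs and 1 of several starts at each of Rpl22 and Rps19. The start of Rpl10l was farthest from any peak, at 450 kb in siControl replicate 2 and about 727 kb in the other 3 libraries. The start of Rpl39l lay 4289 to 4299 bp from the nearest peak in 3 libraries and 102 kb in siChst7 replicate 2. For Rpl32l the distance was between 4515 bp and 29.5 kb. None of these 3 paralogs had a peak over its start in either siRNA group.

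Rpl3l, the copy used in striated muscle, had no peak over its starts at 24727826 and 24732685 on chromosome 17. The upstream start lay 3145 to 3191 bp and the other 3400 to 3539 bp from the nearest peak. Rpl3l is nonetheless among the 76 genes, because a region at 24736085 to 24737029 touches its downstream end. That region also reaches Msrb1, a methionine sulfoxide reductase gene, and had fold enrichments of 14.3 and 13.8 in siControl and 12.3 and 14.6 in siChst7. One day after MGT induction, the muscle paralog therefore had no peak at a start with either siRNA. By contrast Rps27l, a paralog of Rps27 that p53 can induce, was covered over both of its starts in all 4 libraries, with fold enrichments of 13.1, 13.6, 13.5 and 13.4.

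**Figure D1:**
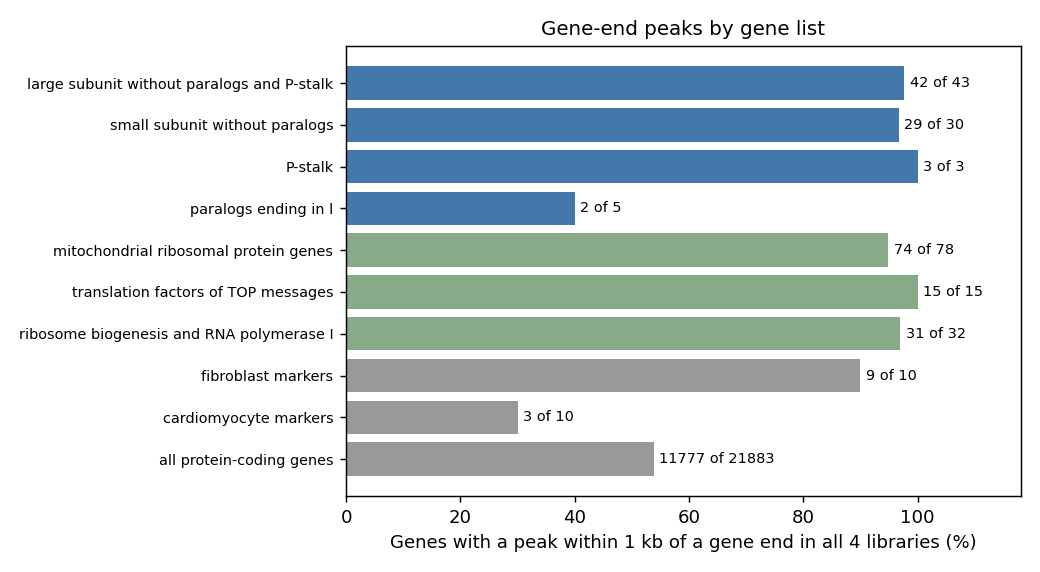
Share of genes (%, horizontal axis) with an end peak in all 4 libraries, with the count beside each bar, for groups of ribosomal protein genes (blue), related gene lists (green), and marker lists and all protein-coding genes (grey). The large-subunit, small-subunit and P-stalk genes stand at 42 of 43, 29 of 30 and 3 of 3, and the paralogs at 2 of 5.

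Other genes that make or serve the ribosome were accessible at similar shares. Of the 8 ribosomal protein genes that the naming rule leaves out, such as Rps3a1 and Rack1, 7 had an end peak in all 4 libraries, and Rps27rt had none in any. All 15 translation factors and TOP-type genes of a list, among them the elongation factors Eef1a1 and Eef2 and the poly(A)-binding protein gene Pabpc1, had one. So did 31 of 32 genes of ribosome biogenesis and RNA polymerase I, including the nucleolar proteins Ncl and Fbl. The exception, Ubtf, a factor that binds ribosomal DNA, had 2 of its 6 annotated starts under a peak in all 4 libraries. Of 78 mitochondrial ribosomal protein genes, which build the separate ribosome of mitochondria, 74 (94.9%) had an end peak in all 4 libraries. The other 4, Mrpl4, Mrpl24, Mrps2 and Mrps23, each held a region called in all 4 libraries over the gene body or within 1 kb.

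The 76 genes with an end peak shared 94 regions, since 17 of them had 2 regions and Rpl19 had 3. Of these regions 88 were called in all 4 libraries (93.6%), against 80.8% of the regions at the ends of all protein-coding genes. Regions called in fewer libraries lay, among others, at Rpl7, Rpl22, Rpl13, Rps15 and Rpl3. At Rpl22 the missing call follows from the window: the peak over its start at 152325726 on chromosome 4 was present in all 4 libraries, with fold enrichments of 17.4, 16.8, 16.5 and 16.7, but in siChst7 replicate 1 it began 1036 bp from the gene end. In what follows each gene is described by its strongest region, and 75 members had a strongest region called in all 4 libraries. Because a call in every library was required, these are the called genes and not all members. The strongest region lay over an annotated start at 53 of the 57 members where a start is known, the exceptions being Rpl3l, Rpl19, Rpl4 and Rpl18. Rpl4 is described by a region beyond its downstream end, near Snapc5, with fold enrichments of 9.58, 9.18, 8.67 and 8.795, whereas the peak over its start had 9.32, 9.12, 9.64 and 7.61. Rpl18 is described by a region at its upstream gene end, with 8.13, 9.70, 8.52 and 9.51, whereas the peak over its start had 9.68, 9.59, 9.53 and 9.80.

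The strongest regions of ribosomal protein genes were of ordinary width and of above-median strength. Median peak width over the 75 genes was 909 and 908 bp in siControl and 922 and 850 bp in siChst7, beside 888, 878, 887 and 833 bp over 11712 protein-coding genes chosen the same way. Median fold enrichment was 14.3, 14.6, 13.9 and 14.2, beside 12.1, 12.4, 11.6 and 11.8 over all genes. Median −log10 q, the authors' measure of peak significance, was 175, 176, 169 and 132, beside 120, 121, 114 and 90.03. Related genes also had medians above those of all genes, although the mitochondrial −log10 q was below that of the members in each library. Over 74 mitochondrial ribosomal protein genes, median fold enrichment was 13.9, 14.4, 13.3 and 14.0, and median −log10 q was 140, 140, 128 and 101. Over 31 genes of ribosome biogenesis and RNA polymerase I, the medians were 14.6, 14.3, 14.0 and 12.8, and 193, 182, 168 and 131. Within each library's ranking of the 11712 regions, the median member stood between the 52.3rd and 54.2nd percentile for width, the 66.6th and 69.0th for fold enrichment and the 70.3rd and 71.3rd for −log10 q.

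**Figure D2:**
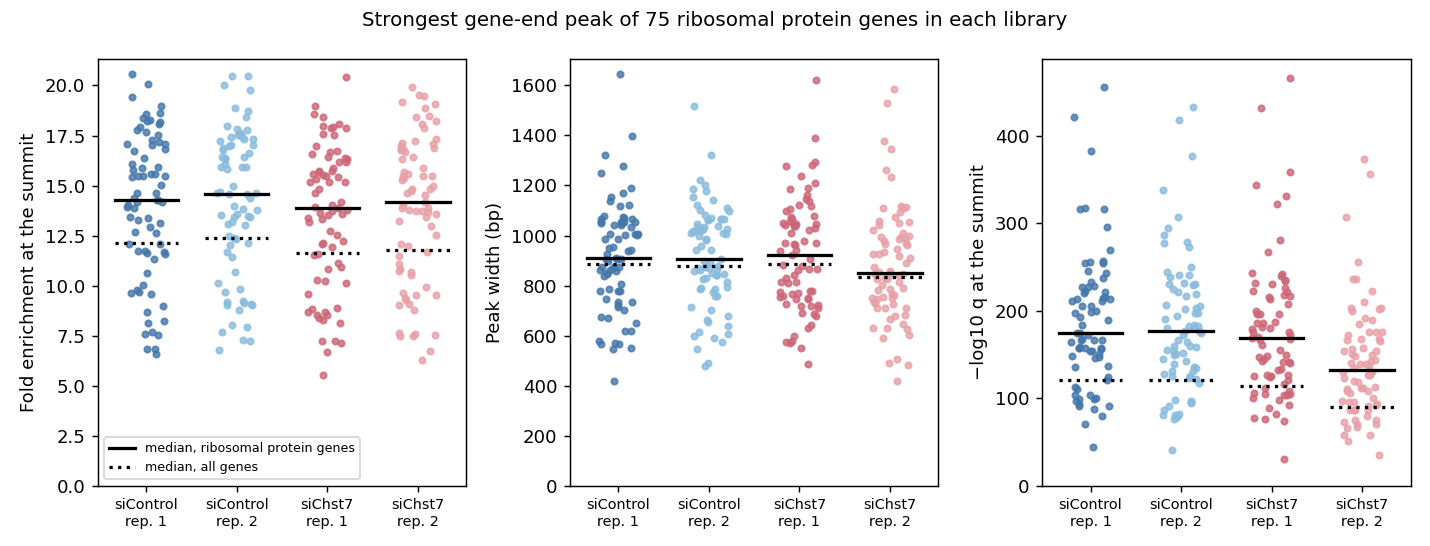
Fold enrichment, peak width in bp and −log10 q (vertical axes, each from 0) of the strongest gene-end peak of 75 ribosomal protein genes in the 4 libraries; each point is a gene, solid lines are medians over these genes and dotted lines medians over 11712 protein-coding genes. The solid line lies above the dotted one in every panel and library, and the median −log10 q is lowest in siChst7 replicate 2.

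Members differed widely among themselves in every library. How far their order repeated between libraries was not measured over all members. Rpl21 had the highest mean fold enrichment, with 20.1 and 19.8 in siControl and 20.4 and 18.9 in siChst7. Rps6, the small-subunit protein phosphorylated by S6 kinase, followed with 20.6, 20.5, 18.6 and 18.2, then Rpl27, Rpl9 and Rpl14, at means of 19.5, 19.1 and 18.6 over the 4 libraries. These genes were strong in every library. At the other end stood the downstream region of Rpl19, followed by Rpl35 with 6.83, 7.30, 6.67 and 6.27. Rpl7 and Rpl23a were also low, with means of 7.57 and 7.57 over the 4 libraries.

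By −log10 q the order was different, with Rps21 first (455, 433, 466 and 373), then Rpl15 (422, 417, 432 and 356) and Rpl27 (383, 377, 358 and 308). Rpl10a, which encodes a protein of the L1 stalk, had the widest peaks, at 1646, 1517, 1620 and 1586 bp. Rps29, Rpl9, Rpl7a and Rpl10 came next, with mean widths of 1299, 1278, 1264 and 1236 bp. Apart from Rpl19, the narrowest were Rps16, Rpl13, Rps28 and Rpl28, with means of 528, 536.5, 593 and 607 bp. At Rpl32 in siControl replicate 1 and at Rpl34 in siChst7 replicate 2 the region was split into 2 peaks, which accounts for a narrow listed peak of 580 bp at Rpl32 beside 1103, 1282 and 856 bp in the other libraries.

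By subunit, median fold enrichment was 13.3, 13.5, 13.3 and 13.0 over 41 large-subunit genes and 15.5, 16.4, 15.4 and 15.5 over 29 small-subunit genes, so the small-subunit median was the higher in each library. The P-stalk, a flexible arm of the large subunit that recruits elongation factors, was accessible at all 3 genes. Rplp0 had fold enrichments of 12.9, 14.0, 12.1 and 12.5, Rplp1 had 14.2, 13.8, 13.9 and 13.9, and Rplp2 had 12.1, 10.7, 9.58 and 10.5. Rpsa, a small-subunit protein also known as the laminin receptor, had 18.3 and 16.9 in siControl and 15.6 and 16.7 in siChst7. The strongest region reached within 1 kb of an end of another protein-coding gene at 20 of 76 members (26.3%), a share close to the 27.1% of 12902 genes with an end region. Such neighbours included Med22 at Rpl7a, Nkiras1 at Rpl15, Lias at Rpl9, Vps52 at Rps18 and Ndufa7 at Rps28.

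The summits, the positions of highest pileup, mostly lay a short way upstream of the annotated starts, and at many members they repeated closely between libraries. Over 48 members with a single annotated start under a peak in all 4 libraries, the median summit was 36 bp upstream of the start, and 36 of the 48 lay within 100 bp of it. Over 6524 protein-coding genes selected the same way the median was 41 bp upstream, and 62% lay within 100 bp. In 16 of the 48 members (33.3%) the 4 summits fell within 2 bp of each other, against 15.5% of the 6524 genes, and in 25 (52.1%) within 10 bp, against 29.7%. Member peaks are also stronger than those of all genes, as given above, and the part of strength in this repeatability was not tested.

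At Rpl7a the summit fell 98 bp before the start in every library, at Rps18 57 bp and at Rpl15 173 bp before it. Rpl13a and Rpl27a, at 100 and 119 bp before the start, and Rpl5, at 70 bp after it, also had 1 summit position in all 4 libraries. In the Rps18 sequence shown above, ETS cores on both strands begin 77 and 75 bases before the start, near the Rps18 summit. Another ETS core there begins 157 bases before the start, and the Rpl7a stretch shown has none. Distances from motifs to summits were not measured over the members. The largest spread among the libraries was at Rpl38, at 628 bp, followed by Rpl10 at 270 bp and Rplp2 at 143 bp.

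**Figure D3:**
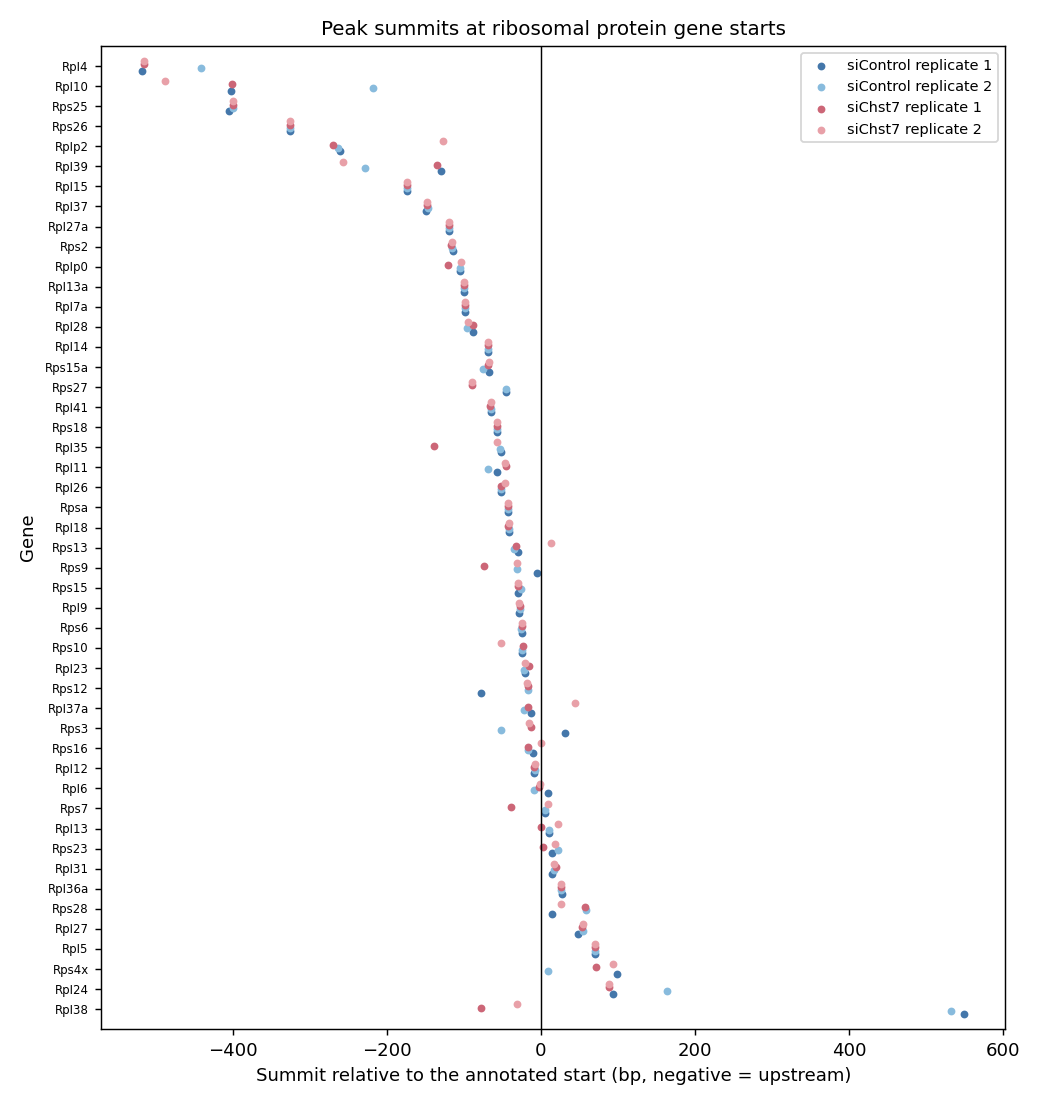
Position of the peak summit relative to the annotated start (bp, horizontal axis, negative values upstream) in each of the 4 libraries (coloured points) for the 48 ribosomal protein genes (vertical axis) with a single annotated start under a peak in all 4 libraries. Most genes have all 4 points within 100 bp of the start, whereas Rpl38 has the siControl summits downstream and the siChst7 summits upstream.

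The letters of the promoters were read over 300 bases, from 250 before to 50 after each start, on both strands. The 66 member starts under a peak in all 4 libraries had a median of 21.5 CpG dinucleotides, beside 22 over 9372 protein-coding starts covered in the same way and 7 over all 32851 starts of the table. The ETS core was present in 48.5% of the covered member starts, in 33.1% of the covered protein-coding starts and in 14.9% of all starts. For the YY1 core the shares were 15.2%, 7.92% and 6.34%, and for the SP1 box 60.6%, 68.0% and 35.7%. The TATA box was found in 7.58%, 6.15% and 13.6%, and the E-box in 10.6%, 11.1% and 7.15%. Starts of a single gene overlap in sequence, so these shares are not over independent promoters.

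Pyrimidine tracts at the start were counted as well. A run of at least 5 pyrimidines beginning at the annotated start base was found at 16 of the 66 covered member starts (24.2%), beside 3.63% of covered protein-coding starts and 4.44% of all starts. The longest were 16 bases at Rpl27a, 13 at Rpl15 and 11 at Rpl35, and Rps10 had 10. Among the other promoters shown above, Rps18 had a run of 9, and Rpl7a and Rps27 had runs of 7. A run of at least 7 pyrimidines from 10 bases before to 16 after the start was present at 42.4%, beside 15.1% and 16.2%. The accuracy of the annotated starts was not tested. The uncovered paralog promoters were mixed in their letters: Rpl32l and the starts of Rpl3l had 2 or 3 CpG dinucleotides, whereas Rpl10l had 13, and Rpl39l had 17 together with 4 ETS cores in the stretch shown above. Rpl32l, though uncovered, had a run of 10 pyrimidines from its start base, whereas Rpl10l, Rpl39l and Rpl3l had none there.

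Between siControl and siChst7, the same ribosomal protein genes were called, and the values of their peaks differed by amounts comparable to those of all genes. With 76 members called in every library, the counts did not differ (exact permutation p = 1, a value that equal counts fix). Of the 94 member regions 1 was called in both siControl libraries and in neither siChst7 library (1.06%), against 1.45% of 14830 gene-end regions. In the reverse direction there was none, against 0.465%. The single region, at 80076723 to 80077017 on chromosome 15, lay beyond the other end of Rpl3 from its main peak, with fold enrichments of 2.03 and 2.33. When a −log10 q of at least 5 was required it remained in siControl replicate 2 alone, with 7.01, and so no longer separated the groups. The main Rpl3 peak had fold enrichments of 12.6, 12.4, 11.1 and 11.99.

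Median fold enrichment of the 75 members was 14.4 ± 0.209 in siControl and 14.0 ± 0.199 in siChst7 (SD, n = 2 each). The difference had an exact two-sided permutation p of 0.333, the smallest that 2 against 2 libraries allow. Over all genes the same medians were 12.2 ± 0.181 and 11.7 ± 0.123 (SD, n = 2 each). Divided by the median over all genes of its library, the member median was 1.18 in both siControl libraries and 1.20 in both siChst7 libraries, so the direction turned (difference 0.0190, exact p = 0.333). Without siChst7 replicate 1 the difference in member medians was -0.12 in place of -0.39, and without siControl replicate 2 it was -0.24. It was larger, at -0.54, without siControl replicate 1 and, at -0.53, without siChst7 replicate 2.

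Median width was 908.5 ± 0.707 bp in siControl and 886 ± 50.9 bp in siChst7 (SD, n = 2 each; exact permutation p = 1), so the 2 siChst7 libraries lay on either side of siControl. Without siChst7 replicate 2, the library of lowest read density, the direction turned, with siChst7 wider by 13.5 bp, and without siChst7 replicate 1 the difference was -67.8 bp. Median −log10 q was 176 ± 1.34 and 151 ± 26.0 (SD, n = 2 each; exact permutation p = 0.333). The difference was -24.8 with all libraries, -6.38 without siChst7 replicate 2 and -42.1 without siChst7 replicate 1. The median over all genes was also lowest in siChst7 replicate 2, and division by that median turned the direction (difference 0.0192, exact permutation p = 0.333). A −log10 q grows with read number at equal enrichment, and the part of read density in these differences was not tested.

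Gene by gene, the shares with groups that do not overlap were near those of all genes. Fold enrichment was lower in both siChst7 libraries than in both siControl libraries at 23 members (30.7%, against 35% of 11712 genes) and higher at 7 (9.33%, against 6.21%). Width was lower at 20 (26.7%, against 22.3%) and higher at 6 (8%, against 10.5%). The −log10 q was lower at 39 (52%, against 45.8%) and higher at none (against 1.35%).

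The lowest ratio of group means in fold enrichment among the separated genes was at Rpl36, with 9.78 and 9.09 in siControl and 8.52 and 7.58 in siChst7, a ratio of 0.853. That region also reaches within 1 kb of an end of Micos13, and the promoter table holds no start of Rpl36. Another Rpl36 region called in all 4 libraries had overlapping groups, with 7.17 and 8.12 in siControl and 7.16 and 8.44 in siChst7. Rpl26, a large-subunit protein also known to bind the p53 message, had 16.4 and 17.3 against 13.6 and 15.5, a ratio of 0.864. Rpl12 had 11.7 and 13.4 against 10.95 and 10.8, a ratio of 0.868. In the other direction Rps4x, the X-linked copy of a small-subunit gene, had 15.9 and 16.4 against 17.5 and 17.3, a ratio of 1.08. Rpl14 had 18.1 and 18.0 against 18.99 and 19.5, and Rps29 had 12.7 and 12.3 against 13.2 and 13.2, with ratios of 1.07 and 1.05. All ratios among the 30 separated genes thus lay between 0.853 and 1.08.

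**Figure D4:**
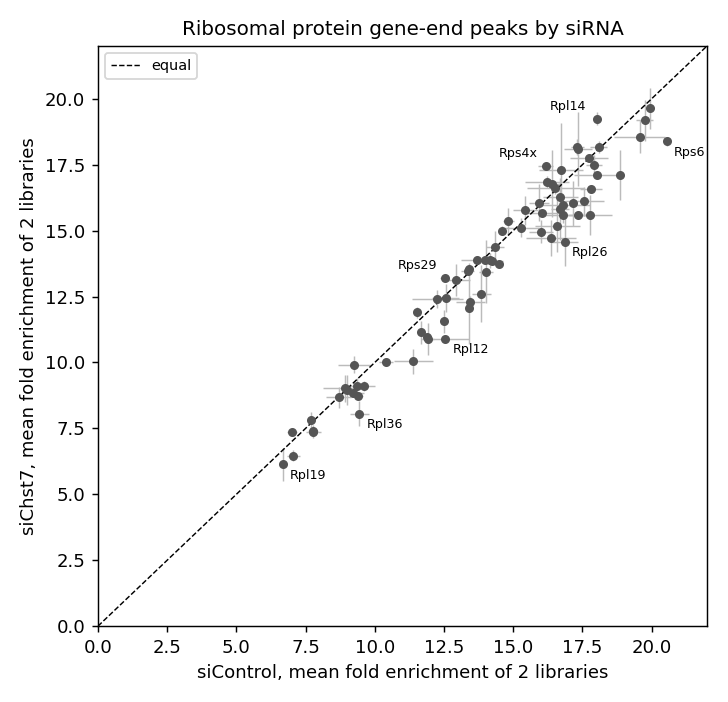
Mean fold enrichment of the strongest gene-end peak in siControl (horizontal axis) and siChst7 (vertical axis) for 75 ribosomal protein genes; error bars span the 2 libraries of each group and the dashed line marks equal values. Points follow the dashed line from Rpl19 at the low end to Rps6 at the high end, with Rpl36, Rpl26 and Rpl12 below it and Rps4x, Rpl14 and Rps29 above it.

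Width and summit position differed more at single genes, and how often widths differ this much over all genes was not measured. Rpl14 was 1001 and 1111 bp wide in siControl and 689 and 761 bp in siChst7, although its fold enrichment was the higher in siChst7. Rpl13a was 808 and 825 bp against 598 and 590 bp. Rps27, a zinc-finger protein of the small subunit, went the other way, with 550 and 546 bp against 746 and 647 bp. Its summit lay 45 bp before the start in both siControl libraries and 89 bp before it in both siChst7 libraries, on either side of the YY1 core in the sequence shown above, which begins 74 bases before the start. At Rpl38 the summit was 550 and 532 bp after the start in siControl and 78 and 31 bp before it in siChst7. These 2 genes were the only members, out of 48, whose summits were separated by at least 40 bp between the groups. That share is close to the 4.87% of the 6524 genes, and the 2 genes were picked out after their values were seen.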

How the data were processed

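ATAC-seq peak lists, 1 per library, were analysed for 4 libraries. The build was mm10, and the tools were MACS3, Bowtie, HOMER, bedtools and SAMtools, per the submitters' processing notes, which give no versions here. How reads were filtered is not given in the sources used here. Peak names refer to 1 alignment per library, so replicates were not pooled. The authors deposited, per peak, a score (10 times the −log10 q), a fold enrichment (a ratio), −log10 p and −log10 q, and the summit position; the lowest −log10 q was just above 2. These values describe peaks within a list and hold no read counts, so no count model could be used.

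Peaks on chromosomes 1 to 19, X and Y within 1 kb of either gene end were merged over libraries at 1 bp overlap with Python 3.11.15 and pandas 2.3.3. The gene table holds no strand, so starts came from the promoter table. The strongest region of a gene had the highest summed −log10 q, and the strongest peak gave each library's value. Libraries were compared with exact two-sided permutation tests. Relative read density is the background pileup, found from weak peaks (−log10 q under 8) whose fold steps fell on whole reads within 0.001, divided by the narrowest width; 33.0% to 45.9% of weak peaks did so. The code was tested on simulated lists. Named were the members without a peak or not called in every library, the 5 highest and lowest in fold enrichment and width, the 3 most different between groups in each direction, paralogs, P-stalk genes and Rpsa; genes named for −log10 q, summits or letters, and the sequences shown, were chosen after their values were seen. Some genes that this rule names are not reported here. Members and lists were chosen with earlier results of these data known. Alternatives were other −log10 q minima, list lengths, windows, summit-based windows, width minima, leaving out each library and the replicate number as a block.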

Additional observations from a re-analysis of the deposited data

How the results depend on the processing

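The number of members with an end peak in all libraries stayed between 73 and 78 under every alternative that used gene ends, with 73 for a window of 500 bp and 78 for 2.5 kb; with annotated starts in place of ends, chosen after seeing the data, 57 of 61 were covered. The count of member regions called in 1 siRNA group, 1 as reported, was 0 with a −log10 q of at least 5 or 10, with equal list length and with a window of 500 bp, 2 with a window of 2.5 kb or with summits in the window, and 3 with summit windows of 200 bp. It ranged from 1 to 3 when each library was left out. The differences in medians kept their direction, except that width ranged from -67.8 to 13.5 bp over the libraries left out, positive without siChst7 replicate 2, and that division by the median over all genes, chosen after seeing the data, turned all 3 differences to 0.00102 for width, 0.0190 for fold enrichment and 0.0192 for −log10 q. No difference could pass a threshold of 0.05. Counts of genes with separate groups rose when a library was left out, as a group of 1 overlaps less often: width to between 49 and 53, fold enrichment to between 50 and 56 and −log10 q to between 49 and 75.

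With the replicate number as a block, the differences were -22.5 bp, -0.39 and -24.8 with exact p of 1, 0.5 and 0.5, 0.5 being the smallest that 2 pairs allow. Libraries of the same number deviated together only weakly over 11712 genes (correlations of 0.0232, 0.0385 and 0.0510 for width, fold enrichment and −log10 q). These values, taken after each library's median was removed, cannot settle whether the replicate numbers pair the libraries.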

Other observations

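Ribosomal protein genes have many pseudogenes, mostly copies of spliced messages that carry no promoter. Of 321 annotated pseudogenes named after a ribosomal protein gene, 16 (4.98%) had an end peak in all 4 libraries and 285 had none in any. Over all 9944 annotated pseudogenes the share was 4.67%. Among the 16 were Rpl14-ps1, Rpl21-ps8, Rps12-ps3 and Rpsa-ps12, and at 2 of the 16 a protein-coding gene also ended within 1 kb of the region. Rps27l, outside the count of summits because it has 2 annotated starts, had its summit 94 and 93 bp before the first start in siControl and 20 and 15 bp before it in siChst7. Rps19, with 3 annotated starts, had its summit 256 and 322 bp before the first start in siControl and 153 and 197 bp before it in siChst7. Rps27l and Rps19 were picked out after their values were seen. How often summits differ this much over all genes with several starts was not measured.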
